A study of Arabidopsis thaliana with 12 samples.

Results

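The transcripts described here come from the plastid and the mitochondrial genome of Arabidopsis thaliana. They are all the rows of the deposited expression table whose locus identifier begins with ATCG (plastid) or ATMG (mitochondrion), which gave 114 plastid and 74 mitochondrial loci, 188 of 26702 rows in all. Every seedling carried the mutations clv3 epfl1 epfl2 epfl4 epfl6, so the controls lack the same secreted signalling peptides as the treated seedlings and no wild type was analysed here. The material was labelled as seedling shoot at 3 days post germination, and poly(A) RNA was sequenced. Of the 4 groups of 3 biological replicates, mock received buffer and EPFL6 received 8.7 µl of a 10 µM solution of the EPFL6 peptide in 1 ml of medium. The CHX group received cycloheximide at 10 µM and then buffer, and the CHX plus EPFL6 group received the same cycloheximide 10 minutes before EPFL6. Each replicate was a pool of 10 seedlings, and how long EPFL6 acted before collection is not given in the sources used here.

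Plastids and mitochondria keep small genomes of their own, which encode core subunits of photosynthesis and of respiration together with parts of the organelle's own ribosomes. The plastid genome is transcribed by a bacterial type polymerase that needs nuclear sigma factors, and by nuclear encoded phage type polymerases, while plant mitochondria rely on the phage type enzymes. In plant organelles a poly(A) tail marks an RNA for decay, unlike the tail of a nuclear messenger, so a library selected for poly(A) holds an unknown part of the organelle RNA. Cycloheximide stops the ribosomes of the cytosol and leaves the bacterial type ribosomes of the organelles working. EPFL6 is a secreted peptide of a family that acts through receptor kinases at the cell surface.

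Libraries held 40204704 to 106641940 reads. Of these, 212589 reads over all 12 libraries lay on plastid loci and 159183 on mitochondrial loci. The signal of a locus is its normalised read count, the reads divided by 1 scaling factor per library, which sets the typical gene level in all libraries. The share is the percent of all listed reads of a library, which does not depend on that scaling. Both are given because they part under cycloheximide: summed over all genes, the signal was 50467442 to 52690879 in the 6 libraries without cycloheximide and 82273820 to 89810952 in the 6 with it. The 100 most abundant nuclear genes took 7.14% to 8.02% of the reads without cycloheximide and 20.2% to 22.5% with it. All 12 root markers were detected in every library despite the shoot label, and none was at 0. Without cycloheximide their summed signal was 7085 to 10486 in mock and 9281 to 11779 after EPFL6. With it the sum was 1124 to 1602, and 775 to 1124 after both agents, and their part in the organelle results was not tested.

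Both organelle genomes were near the floor of detection for most loci. The median mean signal was 17.9 for plastid loci and 7.77 for mitochondrial loci, against 606 over all genes listed. Of the 114 plastid loci 26 had a mean signal of 100 or more and 6 of 1000 or more, while 4 and 2 of the 74 mitochondrial loci did. A signal of at least 10 in at least 3 libraries was needed for the test, which 93 plastid and 37 mitochondrial loci passed. The 21 plastid loci left out had mean signals of 0.758 to 7.04 and the 37 mitochondrial ones 0.712 to 7.59. They held 0.433% of the plastid and 0.879% of the mitochondrial reads.

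Mitochondrial reads were concentrated on a pair of loci. ATMG00020 held 52.6% and ATMG01390 held 31.7% of them, and together they took 83.2% to 85.5% in each of the 12 libraries. Plastid reads were spread further, with 42.5% on the 4 most abundant loci and 64.6% on the 8 most abundant. ATCG01180 led the plastid genome with a mean signal of 3025 and 17.6% of its reads, followed by ATCG00950 with 1541 and 8.93%. No length was available for these loci, so their signals cannot be ranked as transcript levels. The deposited table and the reference tables used here pair none of these 4 identifiers with a gene name. Whether they encode proteins or ribosomal RNA was therefore not determined, and sums over a genome cannot be read as messenger RNA.

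For 33 of the 188 loci a product name could be read from notes in the RefSeq annotation of TAIR10.1, where a nuclear gene is described by its organelle relative. These are 7 plastid and 26 mitochondrial loci, of which 7 and 9 were tested. All 26 mitochondrial ones are cited by genes in the block of mitochondrial DNA inserted in chromosome 2 (AT2G076, AT2G077 and AT2G078 identifiers). In the TAIR10.1 sequence, 72.7% of the 367808 bases of the mitochondrial genome lie in stretches that match chromosome 2 at 99% identity or more over at least 100 bases. For the plastid genome, 0.403% of its 154478 bases match a nuclear chromosome in this way, while 34% match another part of the plastid genome itself. Reads from such copies cannot be told apart by sequence over an identical stretch, and how the submitters treated multiply mapping reads is not given in the sources used here. The values of mitochondrial loci with a chromosome 2 copy are therefore uncertain, as are those of plastid loci with a copy in the plastid genome. Which plastid loci these are, the most abundant ones included, could not be told.

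With cycloheximide alone, the summed mitochondrial signal was 1.45 times that of mock. Most of that signal lay on ATMG00020 and ATMG01390, whose products are not named here. The sum was 11590, 10333 and 11848 in the 3 mock libraries and 16920, 13926 and 18012 in the 3 CHX libraries, so the groups did not overlap. After EPFL6 the mitochondrial sum was 9302, 10957 and 8954 without cycloheximide, and 17169, 15321 and 11750 with it. These groups did not overlap either, at a ratio of 1.51. The mitochondrial share of the library behaved otherwise: it was 0.0220% ± 0.0021 (SD, n = 3) in mock and 0.0189% ± 0.0025 in CHX, a ratio of 0.858 with overlapping groups. It was 0.0190% ± 0.0020 in EPFL6 and 0.0173% ± 0.0034 in CHX plus EPFL6, a ratio of 0.913, again with overlap.

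**Figure D1:**
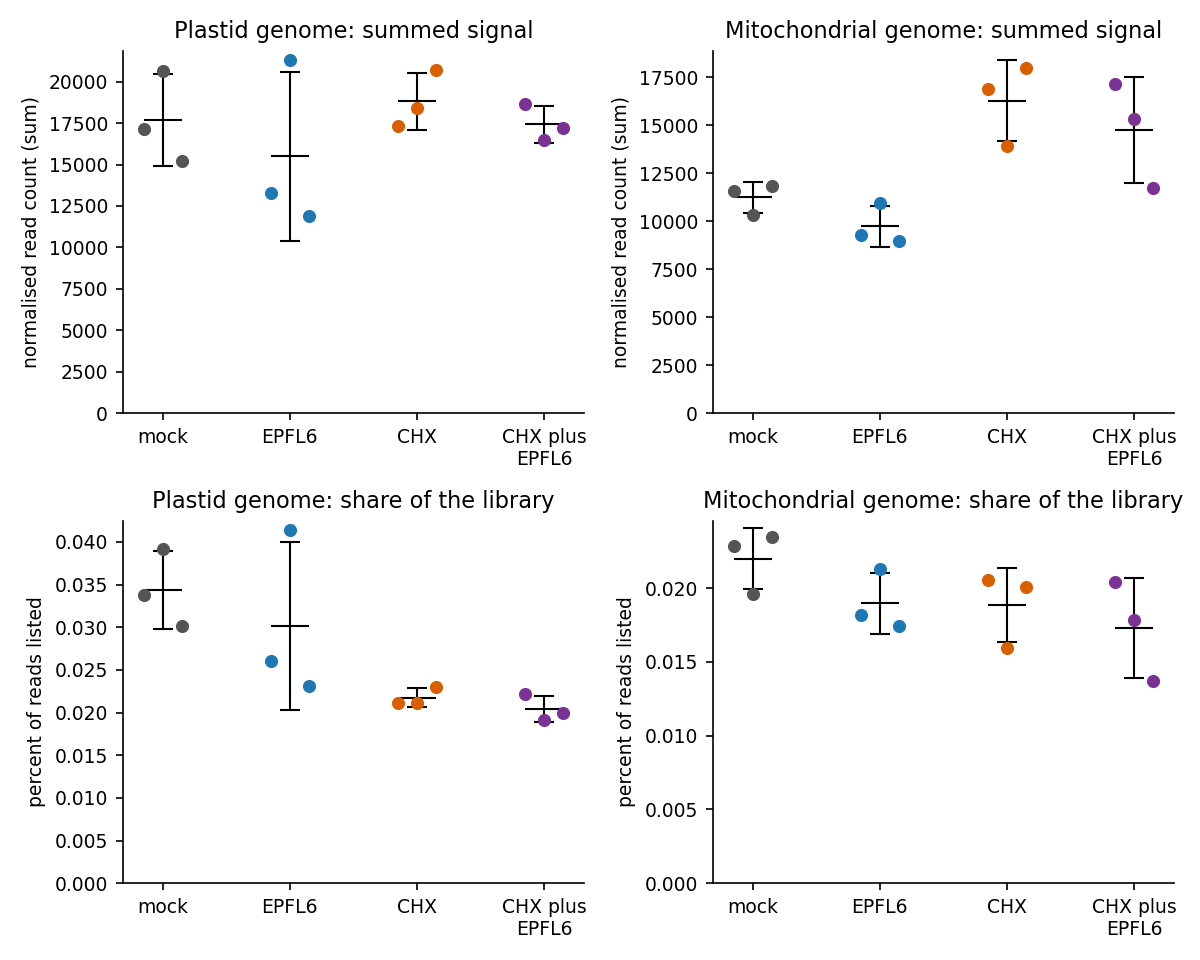
Summed normalised read count (top) and percent of listed reads (bottom) of the plastid and the mitochondrial loci in each library, with group mean and SD as bars (n = 3). Each cycloheximide group stands above its own control in mitochondrial signal and below it in plastid share, while the groups overlap in plastid signal and mitochondrial share.

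Among single mitochondrial loci, 14 of 37 rose and 0 fell in CHX against mock (adjusted p under 0.05, limma across all 23225 tested genes), where 79.2% of all tested genes passed, 40.9% higher and 38.3% lower (9491 and 8895 genes, or 5634 and 14464 when scaled to library size). Of the 37, 34 had a log2 fold change above 0, and the median was 0.54, against 0.02 over all tested genes and against -0.17 for the same loci when scaled to library size, where 1 rose and 3 fell. In CHX plus EPFL6 against EPFL6, 12 rose and 0 fell against a background of 40.2% higher and 37.7% lower, with a median log2 fold change of 0.50, which was -0.20 when scaled to library size. The loci called higher in both comparisons, which share no library, numbered 10 of 37, or 27.0%, against 36.8% of all tested genes. Among them, ATMG00630 reached the filter value of 10 in 5 libraries, all with cycloheximide. It was thus tested only because it was high there, and its calls are no support for a rise. Leaving out mock replicate 2 lowered the 14 calls to 8, and leaving out EPFL6 replicate 2 as well lowered them to 5.

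The most abundant mitochondrial locus, ATMG00020, had a signal of 5817, 5345 and 5953 in mock and of 9031, 7348 and 9446 in CHX. It was 4912, 5752 and 4476 in EPFL6 and 9437, 8138 and 6507 in CHX plus EPFL6. Every cycloheximide library lay above every library without it. The log2 fold change was 0.59 ± 0.14 (SE; adjusted p = 0.0030) in CHX against mock and 0.66 ± 0.14 (adjusted p = 0.0014) in CHX plus EPFL6 against EPFL6, but -0.17 and -0.07 when scaled to library size.

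ATMG01390, the other abundant locus, had a signal of 3847, 3316 and 4053 in mock and of 5256, 4350 and 5789 in CHX. These groups did not overlap, and the log2 fold change was 0.45 ± 0.16 (adjusted p = 0.022). In EPFL6 it was 2909, 3521 and 2976, and in CHX plus EPFL6 5237, 4716 and 3420. The lowest of the latter lay within the EPFL6 range, and the log2 fold change was 0.49 ± 0.16 (adjusted p = 0.015). Both changes were below 0 when scaled to library size, at -0.30 and -0.24. Its call in CHX against mock was lost without mock replicate 2 (adjusted p = 0.080), CHX replicate 1 (0.059) or CHX replicate 3 (0.086). The ratio of ATMG00020 to ATMG01390 reads was 1.53 ± 0.07 in mock and 1.68 ± 0.04 with cycloheximide alone. It was 1.61 ± 0.09 with EPFL6 alone and 1.81 ± 0.09 with both agents.

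The mitochondrial loci outside this pair summed to a signal of 1814 ± 129 in mock and 2546 ± 284 in CHX. They summed to 1556 ± 112 in EPFL6 and 2261 ± 380 in CHX plus EPFL6. The pair thus held 83.9% ± 0.54 of mitochondrial reads in mock and 84.3% ± 0.30 in CHX. When each locus was expressed as a share of the mitochondrial reads of its library, 1 of 37 loci rose in CHX against mock and 0 changed in CHX plus EPFL6 against EPFL6. The pair makes up most of that denominator, so this scaling sets the other loci mainly against the pair. It cannot show a change of the pair itself, and no share over all genes is given for it.

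Of the 9 tested mitochondrial loci with a product name, 3 rose in CHX against mock and 0 fell, where 40.9% of all tested genes were higher and 38.3% lower. All 3 name subunits of the respiratory chain or of the ATP synthase. ATMG01190, named ATP synthase subunit 1, part of the catalytic head of the enzyme that makes ATP, had a signal of 27.5, 22.3 and 16.3 in mock and of 37.7, 41.7 and 41.3 in CHX, with a log2 fold change of 0.87 ± 0.26 (adjusted p = 0.010). After EPFL6 it was 20.3, 18.2 and 17.5, and with both agents 46.1, 34.9 and 22.9, a log2 fold change of 0.80 ± 0.26 (adjusted p = 0.016, and 0.070 without CHX plus EPFL6 replicate 1). Neither pair of groups overlapped. The nuclear locus that cites it, AT2G07698, also rose in CHX against mock, by 0.71 on the log2 scale (adjusted p = 0.00090), from a mean signal of 67.0 over the 12 libraries against 28.9 for ATMG01190.

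ATMG00990, named NADH dehydrogenase 3 and thus a subunit of complex I, which feeds electrons into the respiratory chain, had a signal of 21.2, 11.1 and 24.5 in mock and of 36.8, 37.6 and 31.2 in CHX. The groups did not overlap, and the log2 fold change was 0.93 ± 0.31 (adjusted p = 0.018). In CHX plus EPFL6 against EPFL6 the change was 0.45 ± 0.31 and did not pass (adjusted p = 0.20). ATMG01080, named mitochondrial F0-ATPase subunit 9, a part of the membrane ring of the ATP synthase, had a signal of 23.3, 13.9 and 9.17 in mock and of 26.7, 28.5 and 27.8 in CHX, with a log2 fold change of 0.89 ± 0.31 (adjusted p = 0.021). The CHX libraries lay close together above a wide mock range. Without mock replicate 2 both calls were lost (adjusted p = 0.076 and 0.051), as they were without CHX replicate 2 (0.051 and 0.052), and the ATMG01080 call was also lost without mock replicate 3 (0.090). The chromosome 2 loci that cite them did not pass, with log2 fold changes of 0.18 for AT2G07751 (adjusted p = 0.59) and 0.34 for AT2G07671 (adjusted p = 0.43).

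The other 6 named mitochondrial loci did not pass in CHX against mock. ATMG01090, named ATP synthase 9, had a mean signal of 19.9 ± 3.0 in mock and 30.3 ± 1.7 in CHX, groups that did not overlap (adjusted p = 0.11). ATMG00730, named cytochrome c oxidase subunit 3, part of the enzyme that reduces oxygen, was at 8.66 ± 4.12 and 12.2 ± 1.2 (adjusted p = 0.18). ATMG01320, named NADH dehydrogenase 2B, was at 14.9 ± 1.6 and 18.2 ± 6.2 (adjusted p = 0.55). ATMG00560, named only as a nucleic acid-binding protein, was at 18.5 ± 4.2 and 17.9 ± 4.1 (adjusted p = 0.88), and ATMG01220, of unknown function, was at 10.3 ± 2.6 and 16.0 ± 0.7 (adjusted p = 0.058). The remaining locus, ATMG00980, is described with EPFL6.

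**Figure D2:**
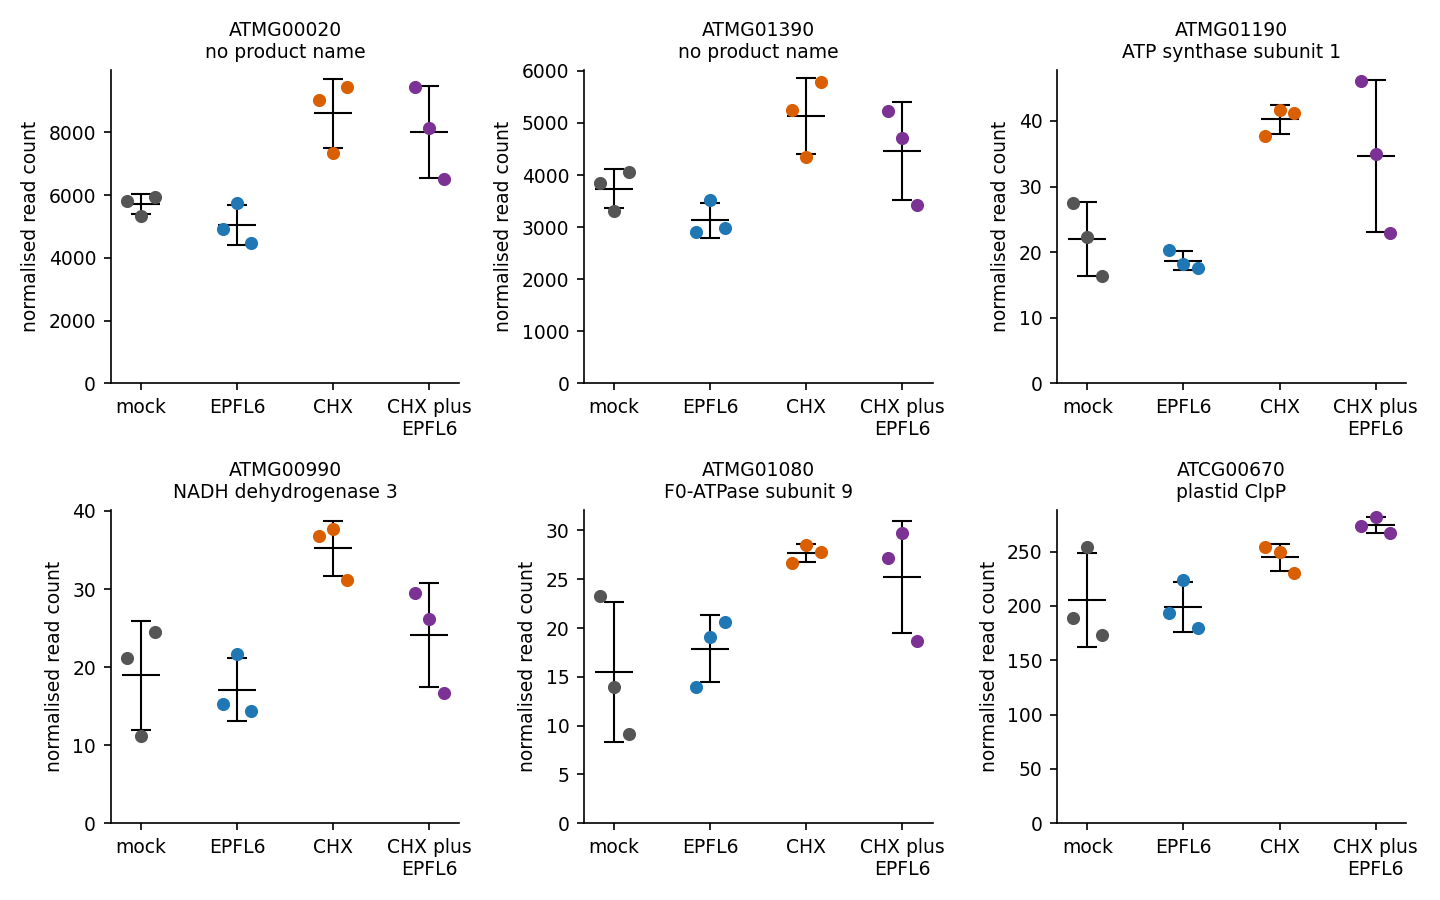
Normalised read count of 5 mitochondrial loci and of ATCG00670 in each of the 12 libraries, with group mean and SD as bars (n = 3). For ATMG00020, ATMG01190, ATMG00990 and ATMG01080 the 3 CHX points lie above the 3 mock points, as for ATMG01390, while for ATCG00670 these groups overlap.

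The table lists 82 loci with identifiers of the chromosome 2 block, of which 29 were tested. In CHX against mock 7 of the 29 rose and 3 fell, against 40.9% and 38.3% of all tested genes, with a median log2 fold change of 0.37. When scaled to library size 1 rose and 10 fell, with a median of -0.35. At that scaling 5634 of all 23225 tested genes rose and 14464 fell, with a median of -0.73. In CHX plus EPFL6 against EPFL6 5 rose and 3 fell, against 40.2% and 37.7% of all tested genes, with a median of 0.28. Whether mitochondrial and chromosome 2 loci exchanged reads was not tested.

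The plastid genome took a smaller share of the reads under cycloheximide at about the same summed signal. Its share was 0.0337%, 0.0392% and 0.0302% in the mock libraries and 0.0211%, 0.0211% and 0.0230% in CHX, a ratio of means of 0.632 with no overlap. After EPFL6 it was 0.0260%, 0.0414% and 0.0231% without cycloheximide and 0.0222%, 0.0192% and 0.0200% with it, a ratio of 0.678, again with no overlap. The latter gap was about as wide as the counting error, with a 95% Wilson interval of 0.0226% to 0.0235% for the lowest EPFL6 library (replicate 3) and of 0.0218% to 0.0225% for the highest CHX plus EPFL6 library (replicate 1), and such intervals cover counting error only. Without EPFL6 replicate 2 the log2 ratio of this comparison moved from -0.56 to -0.26, and over all left-out replicates it was -0.72 to -0.26, against -0.75 to -0.56 in CHX against mock.

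As signal, the plastid sum was 17118, 20666 and 15223 in mock and 17330, 18411 and 20686 in CHX, a ratio of 1.06 with overlapping groups. It was 13286, 21312 and 11869 in EPFL6 and 18661, 16471 and 17188 in CHX plus EPFL6, a ratio of 1.13, also with overlap. A share also depends on the rest of the library. The 100 most abundant nuclear genes held on average 7.57% of the reads in mock and 20.8% in CHX. Without them, the log2 ratio of plastid shares in CHX against mock was -0.44 in place of -0.66. Whether the amount of plastid RNA itself changed was not tested. In these bulk samples, the number of cells with developed plastids and the plastid RNA per cell cannot be told apart either. The root markers moved with the same groups, with 9 of 12 falling and 2 rising in CHX against mock (38.3% and 40.9% of all tested genes).

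Single plastid loci seldom passed the test: in CHX against mock 0 of 93 rose and 3 fell, where 79.2% of all tested genes passed. The median log2 fold change was -0.05, with 42 loci above 0 and 51 below, and -0.76 when scaled to library size, where 67 fell. At that scaling the median over all tested genes was -0.73, and 14464 of the 23225 fell. Fewer plastid loci were called than genes in the same broad range of mean signal, a difference that was not tested. Genes within a range need not be alike in signal. A gene could also pass the filter through the 3 libraries of 1 group alone. The median log2 fold change of all tested genes under 100 was 0.38, against 0.02 at all levels. Among tested genes with a mean signal under 100, 69.2% of all genes were called in CHX against mock, against 4.48% of the 67 plastid and 33.3% of the 33 mitochondrial loci at that level. Among those at 1000 or more, 83.2% of all genes were called, against 0 of 6 plastid and 2 of 2 mitochondrial loci.

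**Figure D3:**
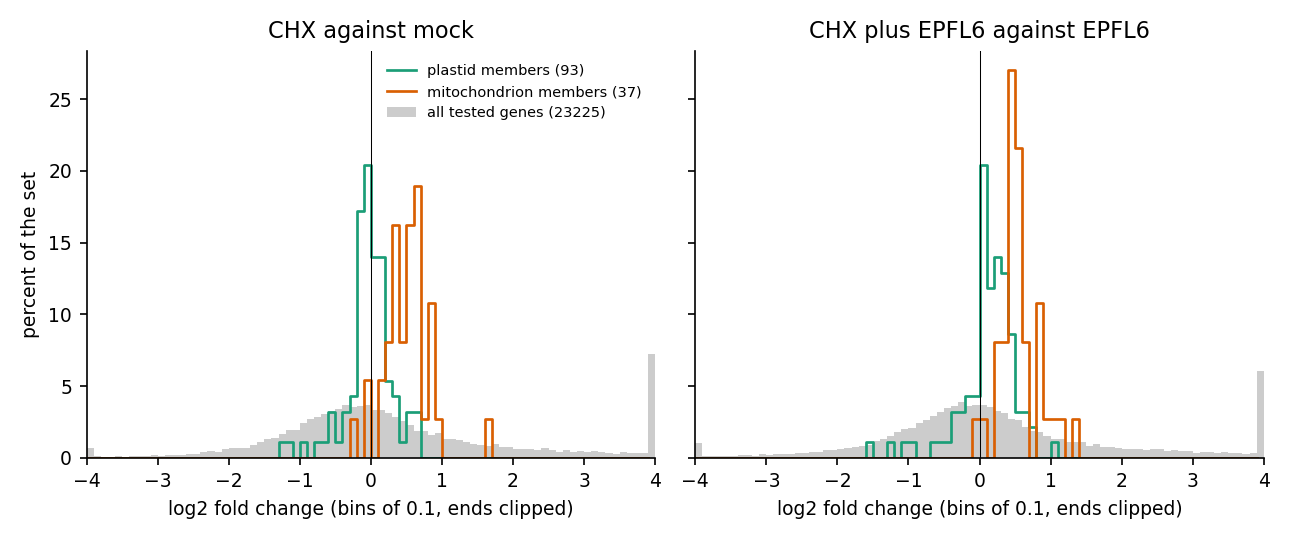
Distribution of log2 fold changes on normalised read counts for 93 plastid loci, 37 mitochondrial loci and all 23225 tested genes, as percent of each set per bin, for cycloheximide without (left) and with EPFL6 (right). Plastid loci crowd around 0 (medians -0.05 and 0.16) and mitochondrial loci around 0.5 (medians 0.54 and 0.50), inside a far wider distribution of all genes. Scaled to library size, the medians are -0.76 and -0.54 for plastid and -0.17 and -0.20 for mitochondrial loci, against -0.73 and -0.70 for all tested genes.

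The plastid loci that fell were at the low end of the counts, and whether they lie in a repeat of the plastid genome could not be told. ATCG01190 and ATCG00930 each reached the filter value of 10 in 4 libraries, all without cycloheximide. They were thus tested only through the side where they are high, so the filter favoured a fall. ATCG01190 had a signal of 11.7, 11.1 and 14.3 in mock and of 6.44, 2.03 and 6.74 in CHX, with a log2 fold change of -1.25 ± 0.47 (adjusted p = 0.031). It was 8.90, 17.4 and 7.21 in EPFL6 and 3.54, 6.99 and 2.08 in CHX plus EPFL6, with a log2 fold change of -1.25 ± 0.47 (adjusted p = 0.031). The groups did not overlap in either comparison. ATCG00930 had a signal of 18.0, 15.8 and 10.2 in mock and of 7.36, 7.12 and 4.21 in CHX, with no overlap and a log2 fold change of -1.11 ± 0.42 (adjusted p = 0.030). In CHX plus EPFL6 against EPFL6 the change was -1.10 ± 0.42 (adjusted p = 0.032) with overlapping groups. These values rest on 12 to 44 reads per group, and the CHX against mock call of ATCG01190 was lost without any 1 of the 3 mock replicates or CHX replicate 2 (adjusted p of 0.052 to 0.13), that of ATCG00930 without mock replicate 1, mock replicate 2 or CHX replicate 3 (0.076 to 0.10).

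In CHX plus EPFL6 against EPFL6, 5 plastid loci rose and 4 fell, against a background of 77.9% called. Of the risers, ATCG00670 is the plastid-encoded CLP P, the proteolytic subunit of the protease that clears proteins from the plastid. It had a signal of 193, 224 and 179 in EPFL6 and of 274, 282 and 267 in CHX plus EPFL6, with no overlap and a log2 fold change of 0.47 ± 0.14 (adjusted p = 0.0094). In mock it was 189, 254 and 173 and in CHX 254, 249 and 231, groups that overlapped, with a change of 0.27 ± 0.14 (adjusted p = 0.096). Scaled to library size, its change in CHX plus EPFL6 against EPFL6 was -0.26.

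ATCG00730 had a signal of 55.9, 72.0 and 46.4 in EPFL6 and of 92.1, 84.8 and 89.4 in CHX plus EPFL6, with a log2 fold change of 0.62 ± 0.19 (adjusted p = 0.012). ATCG01100 was at 24.2, 35.6 and 29.9 and at 54.3, 44.6 and 35.3, groups that overlapped, with a change of 0.56 ± 0.20 (adjusted p = 0.024). ATCG01200 fell furthest, from 8.90, 13.9 and 9.27 to 2.36, 2.62 and 4.16, a log2 fold change of -1.53 ± 0.43 (adjusted p = 0.0070). This locus reached the filter value of 10 in 3 libraries, all without cycloheximide, so the filter favoured its fall. Scaled to library size the changes of ATCG00730 and ATCG01100 were -0.10 and -0.15. Calls lost when 1 replicate was left out were those of ATCG00730 (adjusted p = 0.053 without EPFL6 replicate 3), ATCG01100 (0.094 without EPFL6 replicate 1, 0.10 and 0.055 without CHX plus EPFL6 replicates 1 and 2) and ATCG01190 (0.13 without EPFL6 replicate 2, 0.071 and 0.12 without CHX plus EPFL6 replicates 1 and 3).

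The other 6 plastid loci with a name in the notes did not pass in either cycloheximide comparison. ATCG00530, named as a CemA-like protein of proton extrusion, was at 101 ± 11 in mock and 112 ± 7 in CHX (adjusted p = 0.27). ATCG00750, named ribosomal protein S11, was at 70.7 ± 4.6 and 63.2 ± 5.2, groups that did not overlap (adjusted p = 0.38). ATCG00430, which the notes name photosystem II reaction center protein G, was at 44.2 ± 3.8 and 41.5 ± 1.6 (adjusted p = 0.74). Whether its product is a photosystem II protein was not checked here. The ribosomal protein loci ATCG00660 (L20) and ATCG01310 (L2) were at 16.4 ± 5.1 and 16.6 ± 0.8 and at 13.7 ± 5.9 and 9.17 ± 5.31, and ATCG00420, cited as the source of a pseudogene, was at 29.4 ± 5.2 and 25.6 ± 4.2. The most abundant plastid locus, ATCG01180, was at 2801, 3204 and 2780 in mock and 3377, 3259 and 4725 in CHX, groups that did not overlap, with a log2 fold change of 0.35 ± 0.27 that did not pass (adjusted p = 0.25).

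In plastid signal 2 libraries stood above the other libraries of their groups. Mock replicate 2 lay above the mock mean at 86 of 93 plastid loci (median deviation 0.31 on the log2 scale) and at 21 of 21 nuclear photosynthesis genes (0.59). EPFL6 replicate 2 lay above its group at 77 of 93 plastid loci (0.23) and at 21 of 21 photosynthesis genes (0.42). Replicate 3 of both groups lay below at 76 of 93 plastid loci (-0.22 each) and at 21 of 21 photosynthesis genes (-0.62 and -0.50). In these 4 libraries the plastid loci and the photosynthesis genes thus deviated in the same direction. Their medians differed in sign in mock replicate 1 (-0.07 and 0.01), EPFL6 replicate 1 (-0.03 and 0.09) and CHX plus EPFL6 replicate 3 (-0.01 and 0.18). Over the 6 cycloheximide libraries the median plastid deviation was within -0.05 to 0.06, and that of the photosynthesis genes within -0.20 to 0.18. The median root marker deviation was -0.33 in mock replicate 2 and -0.17 in EPFL6 replicate 2, and 0.09 and 0.02 in replicate 3 of mock and EPFL6.

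Without mock replicate 2, 4 plastid loci were called in CHX against mock and all 4 were higher, in place of 3 lower. Without EPFL6 replicate 2, 19 were higher and 2 lower in CHX plus EPFL6 against EPFL6, and without CHX plus EPFL6 replicate 1, 3 were higher and 2 lower. With mock replicate 2 and EPFL6 replicate 2 both left out, 8 rose and 1 fell in CHX against mock, and 20 rose and 2 fell in CHX plus EPFL6 against EPFL6. These counts are of 93 plastid loci. With all 12 libraries, 40.9% of all tested genes were higher and 38.3% lower in CHX against mock. In CHX plus EPFL6 against EPFL6 the shares were 40.2% and 37.7%. The shares of all genes in the fits with libraries left out are not given here. The median deviation of mitochondrial loci in mock replicate 2 was -0.10, and the library that stood furthest from its group there was CHX plus EPFL6 replicate 3, below the group mean at 35 of 37 loci (-0.29).

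**Figure D4:**
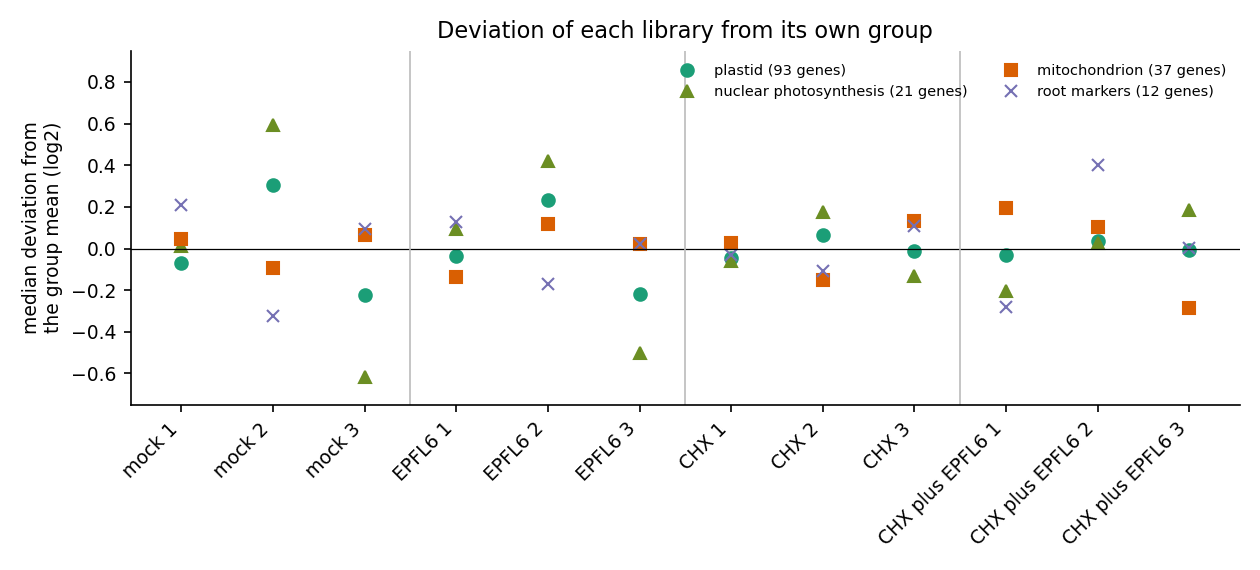
Median log2 deviation of each library from its own group mean, for plastid loci, mitochondrial loci, nuclear photosynthesis genes and root markers. Plastid loci and photosynthesis genes both stand high in replicate 2 and low in replicate 3 of mock and EPFL6, while the plastid points of the 6 cycloheximide libraries stay near 0.

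No locus of either genome passed the test for EPFL6 without cycloheximide. In EPFL6 against mock, limma called 0 of 93 plastid and 0 of 37 mitochondrial loci, against 0.0172% of all tested genes. At an unadjusted p under 0.05 there were 2 plastid and 3 mitochondrial loci, and the share of all genes at that threshold is not given here. Run on the recovered reads, edgeR and DESeq2 called 0 organelle loci, against 2 and 31 genes in all. The medians lay below 0, at -0.21 for plastid loci (78 of 93 below 0) and -0.22 for mitochondrial loci (30 of 37), against 0.00 over all tested genes. The groups overlapped as sums: the share ratio was 0.877 for the plastid and 0.863 for the mitochondrial genome. The log2 ratio of plastid shares moved from -0.19 to -0.49 without EPFL6 replicate 2, to -0.03 without EPFL6 replicate 3, to -0.09 without EPFL6 replicate 1 and to -0.08 without mock replicate 2.

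Under cycloheximide, limma again called 0 plastid and 0 mitochondrial loci in CHX plus EPFL6 against CHX, where 13.5% of all tested genes passed, 5.89% higher and 7.63% lower. At an unadjusted p under 0.05 there were 2 plastid loci and 1 mitochondrial locus, and the share of all genes at that threshold is not given here. Of the organelle loci, edgeR called 0 and DESeq2 called 1, a mitochondrial locus, against 3316 and 4721 genes in all. The median log2 fold change was 0.00 for plastid and -0.19 for mitochondrial loci, and the share ratios were 0.941 and 0.917, with overlapping groups. For the interaction of EPFL6 and cycloheximide, limma called 0 loci of either genome, against 1.5% of all tested genes (0.366% higher, 1.14% lower). The count tests edgeR and DESeq2 also called 0, against 329 and 1528 genes in all. At an unadjusted p under 0.05 there were 3 plastid loci and 1 mitochondrial locus, again without a share of all genes. The median standard error of a log2 fold change between 2 groups was 0.26 for plastid and 0.27 for mitochondrial loci, against 0.13 over all tested genes.

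The locus with the most regular values for EPFL6, chosen after its values were seen, was ATMG00980, named as a ribosomal protein of the S12/S23 family, part of the small subunit of the mitochondrial ribosome. Its signal was 103, 83.5 and 101 in mock and 61.0, 68.5 and 59.7 in EPFL6. It was 117, 104 and 144 in CHX and 100.4, 79.5 and 61.3 in CHX plus EPFL6. The libraries with EPFL6 lay below those without it in both comparisons, which share no library, and no other tested locus of either genome did this in a common direction, while 0.848% of all tested genes were lower in both in this way. Neither log2 fold change passed in limma, at -0.59 ± 0.19 (adjusted p = 1; unadjusted p = 0.011) without and -0.60 ± 0.19 (adjusted p = 0.060) with cycloheximide. DESeq2 called the second (adjusted p = 0.025), as did limma without CHX plus EPFL6 replicate 1 (adjusted p = 0.032), and over all alternatives its adjusted p was 0.025 to 0.37. The chromosome 2 locus that cites it, AT2G07675, had changes of -0.26 and -0.56, neither past the threshold (adjusted p = 1 and 0.15).

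Nuclear genes that serve the organelles are given beside these values at the deposited scaling, and scaling to library size moves the median of all tested genes in CHX against mock from 0.02 to -0.73. The counts called in each list stand against 40.9% of all tested genes higher and 38.3% lower in CHX against mock. The phage type polymerase of mitochondria, RPOTm, rose in CHX against mock from a signal of 3837 ± 375 to 6754 ± 427 (log2 fold change 0.82 ± 0.08, adjusted p = 2.2e-06). RPOTmp, which works in both organelles, rose from 1970 ± 252 to 2713 ± 259 (0.47 ± 0.10, adjusted p = 0.00091). The plastid enzyme of the same type, RPOTp, was at 5617 ± 385 and 6037 ± 441 and did not pass (adjusted p = 0.26). Scaled to library size, RPOTm changed by 0.07 (adjusted p = 0.52), RPOTmp by -0.29 (adjusted p = 0.030) and RPOTp by -0.65. RPOTm also rose in CHX plus EPFL6 against CHX, where RPOTmp did not pass.

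Of the 8 plastid polymerase and sigma factor genes, 3 fell and 1, RPOTmp, rose in CHX against mock. Scaled to library size all 8 fell, where 14464 of all 23225 tested genes fell. The sigma factor SIG6, which directs the plastid polymerase to its promoters, fell from 4987 ± 840 to 2169 ± 245 (-1.19 ± 0.15, adjusted p = 2.4e-05), and SIG1 and SIG3 fell by 0.66 and 0.43 on the log2 scale. Among proteins that associate with the plastid polymerase, 10 of 12 fell and 0 rose (38.3% and 40.9% of all tested genes), with a median log2 fold change of -0.75, among them PTAC7 at -1.40 and PTAC2 at -1.05. Of the 5 genes for organelle RNA decay, 0 passed, with a median of 0.13. All 5 fell when scaled to library size, again beside 14464 of 23225 tested genes.

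Nuclear photosynthesis genes fell at 17 of 21 in CHX against mock, against 38.3% of all tested genes, with a median of -0.94, for example RBCS1A, a small subunit of Rubisco, at -0.94 ± 0.27 (adjusted p = 0.0081). Their spread between mock replicates was wide, at 429480 ± 115820 for RBCS1A. Nuclear genes of the respiratory chain fell at 7 of 9 and rose at 1 (38.3% and 40.9% of all tested genes), with a median of -0.32, for example COX6A, a subunit of cytochrome c oxidase, at -1.09 ± 0.07 (adjusted p = 5.3e-08) and CYTC2, a cytochrome c, at 0.63 ± 0.12 (adjusted p = 0.00050, but -0.13 when scaled to library size). These nuclear genes and the 37 mitochondrial loci thus had medians on opposite sides of 0 at the deposited scaling, and both medians were below 0, at -1.07 and -0.17, when scaled to library size.

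Of the 9 nuclear genes listed here for the mitochondrial stress response, 8 rose in CHX against mock, where 40.9% of all tested genes did. The median log2 fold change was 5.78. The list holds family members and regulators, not all of which need respond to such stress. AOX1A, the alternative oxidase that accepts electrons in place of cytochrome c oxidase, rose from 3281 ± 818 to 261410 ± 4988 (6.35 ± 0.19, adjusted p = 1.9e-10), and OM66, a protein of the outer mitochondrial membrane, rose by 8.43 on the log2 scale. AOX1C was at 85.2 ± 14.4 and 68.0 ± 19.6 and did not pass (adjusted p = 0.22). In CHX plus EPFL6 against EPFL6, where 40.2% of all tested genes were higher and 37.7% lower, the counts were 2 higher and 1 lower of 8 for plastid polymerase and sigma factors, 9 lower of 12 for associated proteins, 2 higher of 5 for RNA decay, 6 lower of 21 for photosynthesis, 1 higher and 8 lower of 9 for the respiratory chain and 8 higher of 9 for mitochondrial stress. None of these lists had a gene past the threshold in EPFL6 against mock.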

How the data were processed

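STAR 2.7.6a, TAIR10 as genome, featureCounts 2.0.0 and also DESeq2 1.26.0 are named in the submitters' processing notes; strand and multi-mapping settings are not given in the sources used here. The deposited signal is reads divided by 1 size factor per library: 100% of values were whole reads within 1e-06 once multiplied by that factor, and the factors equal median-of-ratios factors. The members and gene lists were chosen with earlier results of these data known. The test was limma 3.58.1 (R 4.3.3) on log2(value + 1), all 12 libraries in 1 fit with trended and robust moderation, two-sided, with Benjamini-Hochberg adjustment over the 23225 genes that reached a value of 10 in 3 or more libraries and a threshold of 0.05. Fold changes on this scale understate the change of low loci. Count tests on the recovered reads (edgeR 4.0.16, DESeq2 1.42.0), other scalings, filters, pseudocounts and left-out libraries were alternatives. The fit was checked on simulated data. Shares are given as values with no test. Named loci are called members with a name, up to 2 unnamed ones per direction (highest signal among the higher, largest change among the lower), the most abundant ones and, after their values were seen, ATMG00980 and the tested loci with a name. Classes by gene symbol were not formed, since 0 of 188 members matched a RefSeq locus tag.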

Additional observations from a re-analysis of the deposited data

How the results depend on the processing

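Scaling decided most. As a log2 ratio, summed signal in place of the share gave 0.090 (CHX against mock), 0.17 (CHX plus EPFL6 against EPFL6) and 0.13 (both together) for the plastid genome, and 0.53, 0.60 and 0.57 for the mitochondrial genome. The shares themselves gave -0.66, -0.56 and -0.61 and -0.22, -0.13 and -0.18. Without the 100 most abundant nuclear genes, the plastid share in CHX against mock gave -0.44 and the mitochondrial share over both comparisons 0.055. Library size scaling moves the median of all tested genes in CHX against mock from 0.02 to -0.73 and the calls from 9491 higher and 8895 lower to 5634 and 14464. It called 67 and 47 plastid loci, all lower, without and with EPFL6 in the groups compared, and 4 and 1 mitochondrial loci; it turned ATCG00670 (-0.26), ATCG00730 (-0.10), ATCG01100 (-0.15), ATMG00020 (-0.17 and -0.071) and ATMG01390 (-0.30 and -0.24). As a share of its own genome, ATMG01390 gave -0.075 and -0.10, and the calls were 4 plastid loci in CHX plus EPFL6 against EPFL6 and 1 and 0 mitochondrial loci. ATMG01390 is itself a large part of that denominator, and no share over all genes is given for this scaling. With a filter at 50, which leaves fewer loci to test, the calls were 0 and 3 plastid and 5 and 6 mitochondrial loci.

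Without trended and robust moderation 5 plastid loci were called in CHX against mock and 1 in CHX plus EPFL6 against CHX. For the latter, 1 mitochondrial locus was called without a filter and 1 by DESeq2, which called 4721 genes in all. The causes were not tested. Leaving out each replicate in turn gave 2 to 4 plastid and 8 to 14 mitochondrial calls in CHX against mock, 5 to 21 and 11 to 16 in CHX plus EPFL6 against EPFL6, and 0 to 1 for each genome in CHX plus EPFL6 against CHX, where the 1 plastid locus appeared without CHX replicate 1 and the 1 mitochondrial locus without CHX plus EPFL6 replicate 1. Without mock replicate 2 and EPFL6 replicate 2 together, added after seeing the data, the plastid calls were 9 and 22 and the mitochondrial calls in CHX against mock 5. With all 12 libraries, 79.2% of all tested genes were called in CHX against mock and 77.9% in CHX plus EPFL6 against EPFL6. The log2 ratio of mitochondrial shares changed sign in CHX plus EPFL6 against CHX (-0.26 to 0.02) and against EPFL6 (-0.27 to 0.01), and was -0.30 to -0.11 in CHX against mock.

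Replicate numbers were not taken as pairs, since in no comparison tested here were all 3 same-numbered correlations of deviations over 0.1. Same-numbered libraries had correlations of -0.22 to 0.42 (median 0.089, over 0.1 in 8 of 18) and different-numbered ones of -0.48 to 0.35 (median -0.036, over 0.1 in 9 of 36), and EPFL6 with CHX was over 0.1 in all 3. Not every library correlated best with its own number. With a replicate block, plastid calls in CHX against mock were 5 in place of 3; no other count of calls moved by over 1.5 times. The share without rRNA and tRNA loci was not run, since no table used here names them. Depth limits the low loci, some of which rest on 12 to 44 reads per group.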
